A study of Mus musculus with 12 samples.

Results

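Germ cells of the mouse embryo were compared between embryonic day 11.5 (E11.5), when they populate the gonad, and the E13.5 group that the deposited table names E13.5f. All genes with a completed test were taken, 12448 of the 22552 rows in that table. Both groups were wild-type primordial germ cells, which later form eggs or sperm. They came from embryos of the strain C57BL/6, with no treatment given in the labels, which do not say how the cells were isolated or how many embryos were used. E11.5 had 2 libraries, and its labels give no sex. No library title carries the name E13.5f. Among the 12 libraries of the series, the wild-type ones at E13.5 with no sex in their labels number 3, and the deposited wild-type column of the knockout comparison was close to the E13.5f column, with a median ratio of 0.962 and a span of 0.856 to 1.11 between the first and the last percentile. The other groups shown beside them are wild-type E9.5 (2 libraries), wild-type E13.5m (3 libraries) and Tet1 -/- at E13.5 (2 libraries), a genotype without the enzyme TET1, which oxidises 5-methylcytosine in DNA. RNA came from 400 to 5000 cells at E11.5 and from 500 to 2000 cells for the wild-type E13.5 libraries with no sex label, and the cDNA was amplified.

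Levels are FPKM, a fragment count divided by transcript length and by all mapped fragments, and the authors gave 1 pooled value per group. No value per library, replicate spread or depth can be shown. Log2 ratios are E13.5f over E11.5, each with the standard error (SE) that the authors' deposited test statistic implies. A gene is said to have risen or fallen when its q-value in the authors' deposited table was under 0.05. Nothing in the labels says whether the libraries came from separate embryos, so these tests measure the spread between libraries, which may be technical. The Y-linked gene Eif2s3y was at 46.5 FPKM at E11.5 and at 0.178 FPKM at E13.5f. The libraries therefore differed in Y-linked transcripts as well as in age, and the 2 cannot be told apart. The E13.5 libraries with no sex label also had another stated range of cell numbers than the E11.5 and E13.5m libraries. Their processing notes give another software version. These differences cannot be told apart from that between the groups either.

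In female embryos, germ cells stop dividing by mitosis and enter the prophase of meiosis, the division that makes haploid cells. Retinoic acid and BMP signals from the gonad induce the gatekeeper STRA8, and the competence to respond depends on the RNA-binding protein DAZL. Chromosomes are then loaded with meiotic cohesin, recombination starts with programmed DNA breaks, and the synaptonemal complex joins the homologous chromosomes along their length. In male embryos germ cells instead arrest in the cell cycle and meiosis begins only after birth.

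The 4 genes taken as marks of this step all rose. They were chosen with earlier results of these data known, so their rise is description and no separate support. Stra8 (chromosome 6, 34870959 to 34889342, build mm9) went from 0.205 FPKM at E11.5 to 288 FPKM at E13.5f, a log2 ratio of 10.46 ± 1.15 (SE). Rec8, the cohesin subunit that holds sister chromatids together through the first meiotic division (chromosome 14, 56237002 to 56244232), went from 5.63 to 309 FPKM, giving a log2 ratio of 5.78 ± 0.52 (SE). The authors' deposited table lists a q-value of 0 for both. Tex12, a central element protein gene of the synaptonemal complex (chromosome 9, 50365252 to 50369373), went from 15.3 to 192 FPKM, with a log2 ratio of 3.65 ± 0.59 (SE). Msx1, a homeobox gene induced by BMP signals in the early ovary (chromosome 5, 38211729 to 38215824), went from 21.2 to 208 FPKM, with a log2 ratio of 3.29 ± 0.46 (SE). Stra8 was therefore near the floor at E11.5, whereas Tex12 and Msx1 already stood above 15 FPKM.

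In all, 68 meiotic genes were listed in 6 groups by role. Of these, 62 were found in the table and 55 had a completed test. Among the 55, 36 rose, 0 fell and 19 were not called. Across all tested genes the authors' deposited table called 9.34% higher at E13.5f and 2.68% lower. At an unadjusted p-value under 0.05 in the same table, 39 meiotic genes were higher and 0 lower. For this and later counts at that threshold, the share of all tested genes is not given here. The median log2 ratio of the 55 genes was 1.88, beside 0.26 over all tested genes with a value above 0 in both groups. On the log2(FPKM + 1) scale, which damps low values, the medians were 1.80 and 0.22. Tested again relative to a median log2 ratio of 0.19 (taken over the 9096 genes that reached 1 FPKM in each group), 31 of the 55 were higher and 0 lower, against 6.97% higher and 4.15% lower over all genes in that test. The calls lost in that test were Rbm46, Tex15, Msh4, Hfm1 and Sun2, and their adjusted p-values lay between 0.0564 and 0.0996.

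**Figure D1:**
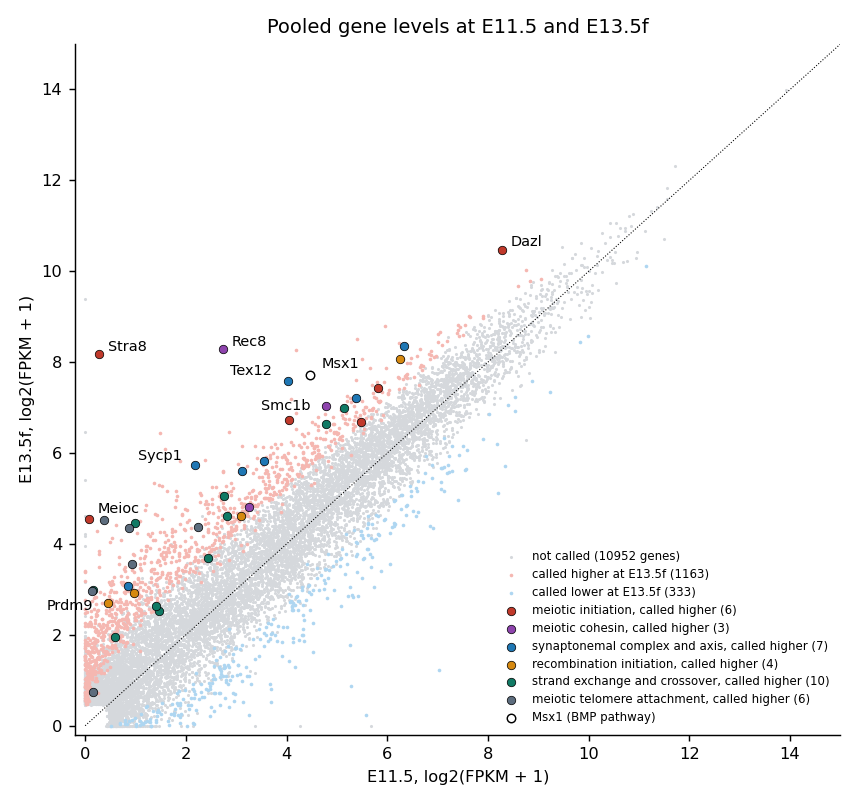
Pooled level of each gene with a completed test at E11.5 (x axis) and E13.5f (y axis), both as log2(FPKM + 1), with the dotted line marking equal levels. The 36 meiotic genes that rose are coloured by role; Stra8 and Meioc sit at the left edge, under 1 FPKM at E11.5, while Dazl rose from 309 FPKM.

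The sequence before the start site was examined because the meiotic genes moved together. Promoter windows of 300 bases, from 250 before to 50 after the annotated start, came from RefSeq (GRCm38.p6), and 30 of the 36 meiotic genes that rose had one. The motif CNCCTCAG, reported to be bound by STRA8 with its partner MEIOSIN, was searched on both strands. It was found for 10 of these 30 genes (33.3%), for 12 of the 45 tested meiotic genes with a window (26.7%), for 133 of 952 genes that rose (14.0%) and for 2465 of 27025 genes in the whole promoter table (9.12%). These shares are descriptions, with no test. In 6 of the 10 genes a match ended no later than the start base, and these sites are shown because they belong to genes that carry the finding. Each runs 5′ to 3′ along the gene, the capitals mark the match, and those that begin CTGAGG hold the motif on the opposite strand.
Rbm46: ggcacgctaggCTGAGGCGaagagcccg
Hfm1: cggcctgaggcCTGAGGCGcaccgtgcggt
Tex12: gtgctgcggctCTGAGGCG
Hormad2: agcaaggcctgCTGAGGGGccaaccttaga
Prdm9: tcttgttcccgCCCCTCAGccagctgtctg
Msh5: gatcgtcgcggCTGAGGTGacggaaaaggc

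All 6 genes lie on the minus strand of GRCm38. The printed stretches are chr3:82876483-82876510 for Rbm46, chr5:106925938-106925967 for Hfm1 and chr9:50561268-50561286 for Tex12. The others are chr11:4441173-4441202 for Hormad2, chr17:15564377-15564406 for Prdm9 and chr17:35046686-35046715 for Msh5. Counted from -1 at the base before the start, the match began at position -16 in Rbm46, -66 in Hfm1, -7 in Tex12, -109 in Hormad2, -41 in Prdm9 and -82 in Msh5. For Dazl, Sycp1, Spdya and Six6os1 the match lay after the start and is not printed. The windows of Stra8, Rec8 and Msx1 did not hold these letters, which says nothing of binding there.

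Other motifs were searched in the same windows on both strands. They were the E2F motif TTCCCGCC, bound by E2F factors, the E-box CACGTG, bound by MAX and its partners, and the CREB motif TGACGTCA. TTCCCGCC was found for 5 of the 30 meiotic genes that rose (16.7%), 6.41% of all genes that rose and 2.52% of the promoter table. CACGTG was found for 8 of the 30 (26.7%), 11.8% of all genes that rose and 8.09% of the promoter table. TGACGTCA was in 0 of the 30 windows, in 2.21% of the genes that rose and in 2.03% of the table. The Tex12 promoter held CNCCTCAG, TTCCCGCC and CACGTG, and its E2F match (chr9:50561396-50561425, from position -146) and E-box (chr9:50561345-50561372, from position -93) are shown for that reason, on the minus strand of GRCm38. In Prdm9 the E2F match, at position -47, overlapped the STRA8 motif by 2 bases.
Tex12, E2F motif: gggaggaaaaaGGCGGGAAgtaaagggaag
Tex12, E-box: cgcgagactgtCACGTGgctcgcgcgct

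Of all tested genes only 79.3% had a promoter window, and of genes that fell 74.8%, under the 80% set, so a comparison with them is void. The shares among all tested genes with a window were 10.8% for CNCCTCAG, 4.75% for TTCCCGCC, 11.6% for CACGTG and 3.47% for TGACGTCA, each above that of the whole promoter table. Among all genes that rose the shares were 14.0%, 6.41%, 11.8% and 2.21% in the same order. They stand beside those of all tested genes as description only, since genes with no window are left out.

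Genes that start meiosis rose in 6 of 8 tested cases, with a median log2 ratio of 1.92, and the other 2 were not called. Meioc, whose product with the helicase YTHDC2 keeps cells in meiotic prophase (listed under its older symbol Gm1564), went from 0.0503 to 22.5 FPKM, giving a log2 ratio of 8.81 ± 1.31 (SE). Zglp1, a GATA-like factor of the oogenic fate that acts downstream of BMP, went from 15.6 to 104 FPKM. Dazl went from 309 to 1421 FPKM, with a log2 ratio of 2.20 ± 0.43 (SE), the highest level of any meiotic gene listed. Dmrt1, which activates Stra8 in the fetal ovary, went from 55.6 to 172 FPKM. Rbm46, an RNA-binding protein gene, went from 43.7 to 102 FPKM. Ythdc2 stood at 1.73 and 3.14 FPKM and the TFIID subunit gene Taf4b at 10.5 and 12 FPKM, and neither was called. The genes that start meiosis thus comprised a pair that started from under 1 FPKM, Stra8 and Meioc, and 4 that rose from levels of at least 15 FPKM.

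Of 4 tested meiotic cohesin genes 3 rose, and the median log2 ratio was 1.98. Besides Rec8, Smc1b, the meiotic form of SMC1, went from 26.7 to 130 FPKM with a log2 ratio of 2.28 ± 0.42 (SE), and Stag3, the meiotic STAG subunit, from 8.55 to 27.3 FPKM with 1.67 ± 0.51 (SE). Rad21l stood at 0.153 and 0.445 FPKM and was not called. Among 14 tested genes of mitotic cohesin and its regulators, none rose (1, Esco1, at an unadjusted p-value under 0.05 in the authors' deposited table), and the median log2 ratio was -0.05. Rad21, the kleisin subunit that REC8 replaces in meiosis, was the 1 that fell, from 138 to 50.8 FPKM with a log2 ratio of -1.44 ± 0.42 (SE). At E11.5 Rad21 was above Rec8 in FPKM, and at E13.5f Rec8 was above Rad21. In the E13.5m column Rad21 was low as well, at 55.0 FPKM, with Rec8 at 38.7 FPKM, so the lower Rad21 level was not particular to E13.5f.

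Of 9 tested genes of the synaptonemal complex and the chromosome axis, 7 rose and 2 were not called, with a median log2 ratio of 2.64. Sycp1, the transverse filament gene, went from 3.56 to 52.3 FPKM with a log2 ratio of 3.87 ± 0.52 (SE). Sycp2 of the lateral element went from 0.804 to 7.43 FPKM. In the central element, Syce1 went from 79.0 to 328 FPKM and Six6os1 (listed as 4930447C04Rik) from 7.62 to 47.3 FPKM. Of the genes for HORMA domain proteins, which mark unsynapsed axes, Hormad1 went from 40.8 to 147 FPKM and Hormad2 from 10.8 to 55.6 FPKM. Syce3 stood at 1.18 and 8.57 FPKM, giving a log2 ratio of 2.86 ± 1.29 (SE) that was not called. Trip13, the ATPase gene that removes HORMA proteins, was high in both groups, 110 and 136 FPKM, and was not called. Sycp3 and Syce2 had no completed test, and their deposited values were 45.4 and 410 FPKM for Sycp3 and 233 and 367 FPKM for Syce2.

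Genes that start recombination rose in 4 of 7 tested cases, with a median log2 ratio of 1.64. Prdm9, the methyltransferase gene that places recombination hotspots, went from 0.366 to 5.48 FPKM with a log2 ratio of 3.90 ± 0.86 (SE). Zcwpw1, a reader of the PRDM9 mark, went from 75.5 to 266 FPKM, and was thus well above Prdm9 in both groups. Mei4, needed for break formation, went from 7.52 to 23.5 FPKM, and Mcmdc2 from 0.957 to 6.61 FPKM. Their partners Rec114, at 29.5 and 62.4 FPKM, and Iho1, at 5.94 and 11.7 FPKM, were not called, nor was Mei1, at 0.357 and 0.717 FPKM. Spo11, the enzyme that cuts the DNA, had no completed test, with 2.53 and 10.5 FPKM deposited.

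Among 20 tested genes of strand exchange and crossover, 10 rose and 10 were not called, with a median log2 ratio of 1.23. Dmc1, the meiotic recombinase, went from 5.74 to 32.1 FPKM with a log2 ratio of 2.48 ± 0.57 (SE). Meiob and Spata22, which form a single-strand binding pair, went from 0.983 to 20.9 FPKM and from 0.113 to 6.88 FPKM. Hsf2bp, which brings BRCA2 to meiotic breaks, went from 34.4 to 126 FPKM, and Tex15 from 4.39 to 12 FPKM.

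Of the crossover genes, Ccnb1ip1 (HEI10) went from 26.6 to 98.7 FPKM, Cntd1 from 6.00 to 23.5 FPKM and the helicase gene Hfm1 from 1.65 to 5.16 FPKM. The MutS pair Msh4 and Msh5 rose to 2.87 and 4.75 FPKM, from 0.514 and 1.77 FPKM. Among repair genes that also serve dividing cells, Rad51c stood at 45.2 and 55.5 FPKM and Mcm8 at 41.7 and 40.3 FPKM, and neither was called. Psmc3ip and Mnd1, which help DMC1, stood at 67.7 and 69.3 FPKM and at 19.9 and 40.7 FPKM. Swi5, Sfr1, Mcm9 and Mlh3 were not called either, with log2 ratios from -0.29 ± 0.55 to 0.88 ± 0.62 (SE).

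Genes that attach telomeres to the nuclear envelope in prophase rose in 6 of 7 tested cases, with a median log2 ratio of 3.58. Majin, Terb1 and Terb2 encode the meiotic telomere complex. Majin went from 0.816 to 19.5 FPKM with a log2 ratio of 4.58 ± 0.89 (SE), Terb1 from 0.909 to 10.9 FPKM and Terb2 from 3.71 to 19.9 FPKM. Spdya (Speedy A), an activator of CDK2 at telomeres, went from 0.301 to 21.9 FPKM, and Kash5, which links telomeres to dynein, from 0.0997 to 6.83 FPKM. Sun2 rose from 0.112 to 0.681 FPKM and so stayed under 1 FPKM, while Sun1 stood at 12.8 and 11.7 FPKM and was not called. Of the 6 genes that rose, 5 were under 1 FPKM at E11.5, against 13 of all 36.

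**Figure D2:**
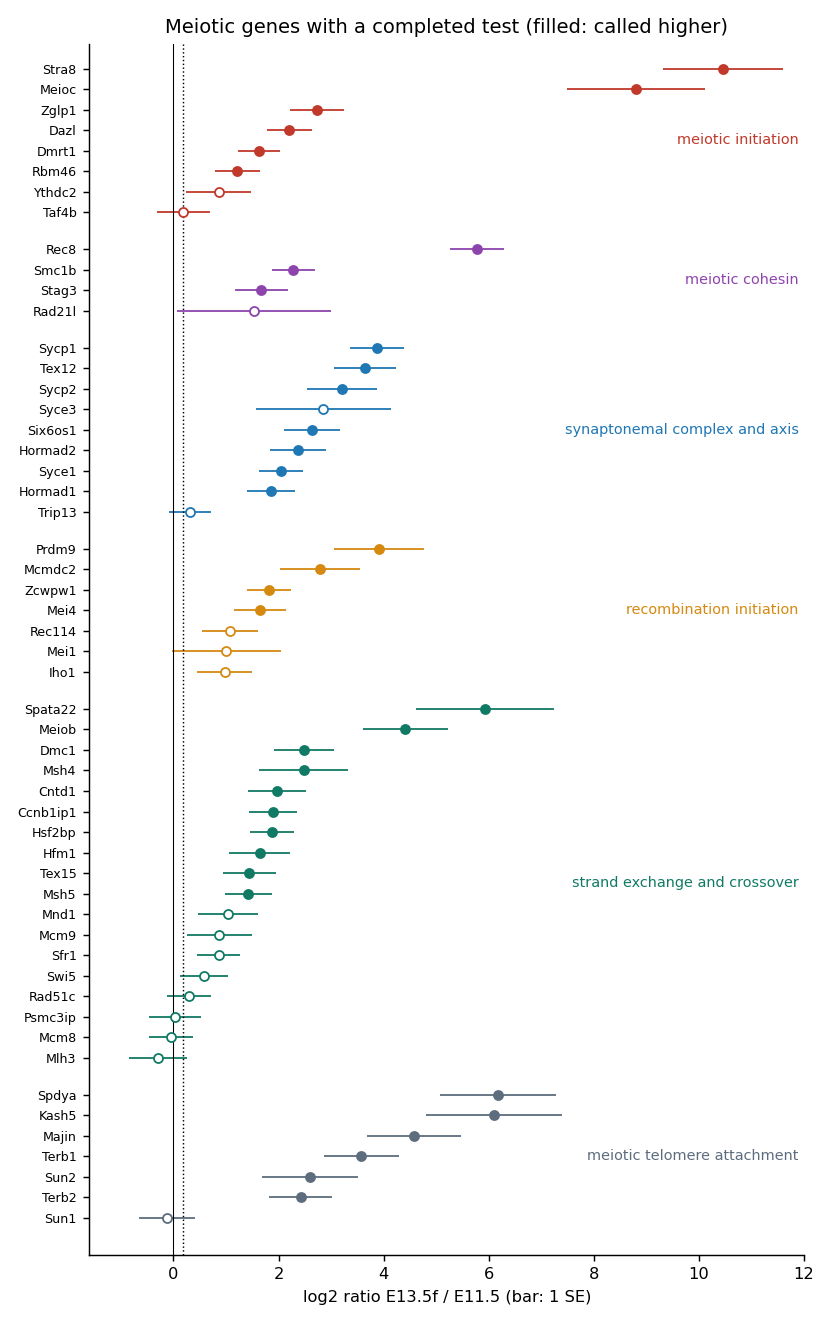
Log2 ratio of E13.5f to E11.5 for 53 of the 55 meiotic genes with a completed test, by role, with bars of 1 SE, filled points for the 36 that rose and a dotted line at the median ratio of 0.19. Stra8 and Meioc lie farthest right at 10.46 and 8.81, and the open points include Sun1, Taf4b and Trip13 near the dotted line.

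Before E11.5 and in the other E13.5 groups the same 36 genes took different levels, each read from its own deposited table. The E11.5 libraries are shared by the 3 stage tables, so these values stand side by side with no test between tables. All 36 were also higher at E13.5m than in the E11.5 column beside it, so a higher level than at E11.5 was not particular to E13.5f. The share of all tested genes for that comparison is not given here, and the shared E11.5 libraries also chose these genes. Stra8 was at 0.0283 FPKM at E9.5, 0.205 at E11.5, 39.0 at E13.5m, 288 at E13.5f and 32.2 in Tet1-KO. Rec8 was at 9.81, 5.63, 38.7, 309 and 63.3 FPKM in the same order. For Dazl the values were 2.24, 309, 1366, 1421 and 671 FPKM, so its E13.5m and E13.5f columns were close. Prdm9 stood at 0.0122, 0.366, 2.05, 5.48 and 0.671 FPKM, and Majin at 0.0251, 0.816, 2.96, 19.5 and 0.562 FPKM.

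Over all 55 tested meiotic genes, called or not, the E13.5f column was above the E13.5m column in 48 (87.3%), beside 65.5% of all tested genes, and more than 2 times as high in 18 (32.7%), beside 18.1%. Mcmdc2 was among the others, with 11.3 FPKM at E13.5m and 6.61 at E13.5f. Of the 51 listed once in the knockout table, 47 (92.2%) were higher in the wild-type column than in the Tet1-KO column, beside 73.9% of all tested genes, and 34 (66.7%) were more than 2 times as high, beside 21.1%. Mcm8 and Sun1 were among those that were not higher in the wild type. These shares have no test, and the columns come from separately normalized tables in the first case. The E13.5f values also chose the 36 genes shown above. Those values may also have helped to decide which genes had a completed test. The wild-type column is taken here to hold the same libraries as the E13.5f column. The share above Tet1-KO is therefore description and no separate support. Summed over all matched members of each role, the cohesin genes reached 467 FPKM at E13.5f and 136 at E13.5m, and the telomere genes 176 and 124 FPKM. Single genes weighed on both sums. Rec8 gave 309 and 38.7 FPKM of the cohesin sums. Cdk2, which had no completed test, gave 84.4 and 92.2 FPKM of the telomere sums. The initiation genes, dominated by Dazl, summed to 2125 and 1695 FPKM.

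**Figure D3:**
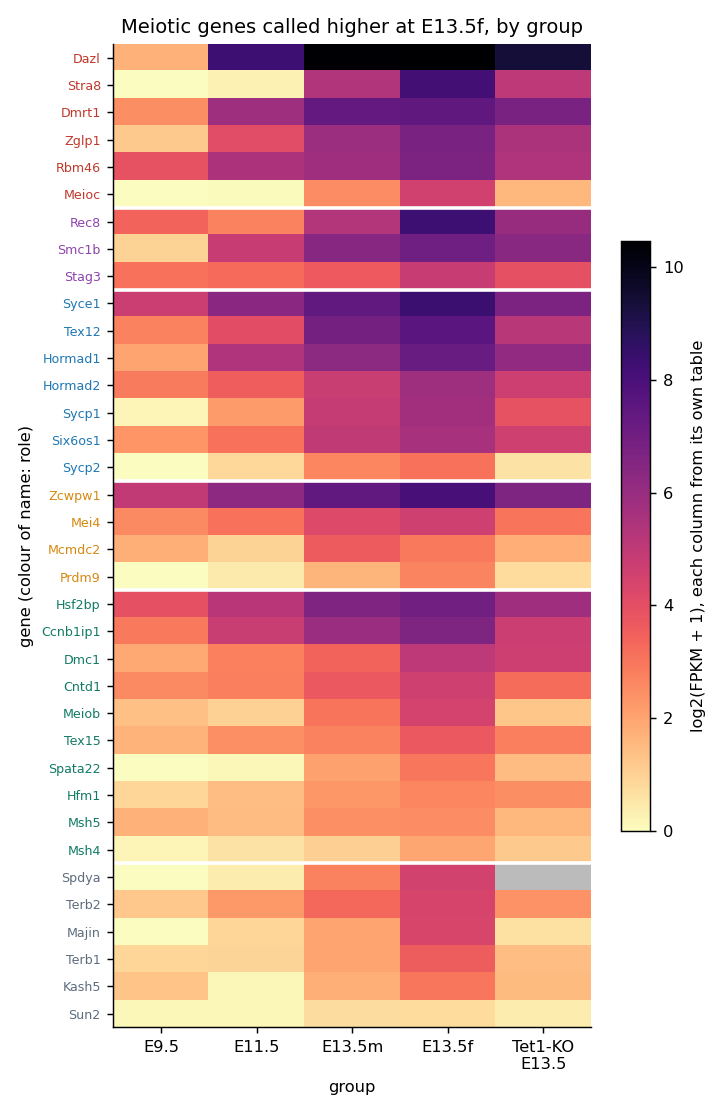
Levels of the 36 meiotic genes that rose, as log2(FPKM + 1), in the E9.5, E11.5, E13.5m, E13.5f and Tet1-KO columns, each from its own deposited table, with genes grouped and coloured by role and grey for a gene not listed. Stra8, Rec8 and the telomere genes are darker at E13.5f than in the other columns, whereas Dazl is nearly as dark at E13.5m.

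Genes of later germ cell stages were mostly low. Of 18 late spermatocyte and spermatid genes, 5 had a completed test and 15 were under 1 FPKM in both groups. Spaca1, an acrosome membrane gene, rose from 2.42 to 14.7 FPKM and Ccna1, the meiotic A-type cyclin, from 0.141 to 2.58 FPKM. The oocyte list had 4 of 12 tested genes higher and a median log2 ratio of 1.04 (0.50 on the log2(FPKM + 1) scale). Figla, which activates the zona pellucida genes, rose from 0.220 to 6.72 FPKM, Lhx8 from 0.151 to 4.03 FPKM, and Sohlh2, of early folliculogenesis, from 99.1 to 310 FPKM. Gja4, an oocyte gap junction gene, rose from 1.33 to 6.02 FPKM (not called relative to the median). Sohlh1, the partner of SOHLH2, was listed at 0 and at 0.529 FPKM and was not called.

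In the list of germ cell RNA-binding and piRNA genes 8 of 22 rose, 6 of them relative to the median. The median log2 ratio of the list was 1.34. The list also holds germ cell genes of other roles, and its counts include Tex101, Brdt and Slc25a31. Tex101, a germ cell surface protein gene, went from 17.2 to 306 FPKM and Brdt, the testis bromodomain gene, from 6.2 to 87.7 FPKM. Mael of the nuage, where piRNAs are made, went from 61.2 to 442 FPKM, and Slc25a31, the germ cell ADP/ATP carrier, from 74.5 to 341 FPKM. Mov10l1, the piRNA helicase gene, went from 9.38 to 32.2 FPKM. Ddx4, the germ cell helicase used as an identity marker, stood at 153 and 269 FPKM and was not called.

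The signals around meiotic entry gave unequal counts. Of 22 tested BMP pathway genes, 7 rose and the median log2 ratio was 0.88. Relative to the median 4 rose, without Smad5, Msx2 and Smad9, the last of which is listed at 0 at E11.5 and could not enter that test. Besides Msx1, these included Id1, from 49.7 to 233 FPKM, and Id2, from 24.3 to 79.9 FPKM, both direct BMP targets. Gata2 rose from 23.7 to 109 FPKM and Msx2 from 22.9 to 58.2 FPKM. Among the transducers Smad5 rose from 6.24 to 11.5 FPKM.

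Of 18 tested retinoic acid pathway genes 1 rose, Rdh10, a retinol dehydrogenase, from 1.48 to 9.74 FPKM, although 11 were higher at an unadjusted p-value under 0.05 in the authors' deposited table and the median log2 ratio was 1.65 over the 14 with a value in both groups. On the log2(FPKM + 1) scale the median of all 18 was 0.86. Cyp26a1, which degrades retinoic acid and is induced by it, was listed at 0 and 2.20 FPKM. Crabp2, a retinoic acid binding protein gene, stood at 6.70 and 20.6 FPKM. The share of the retinoic acid list called higher was 5.56%, which is 1 gene, beside 9.34% of all tested genes. With 1 call the list cannot be said to differ from that share.

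Nodal pathway genes moved the other way. Of 11 tested, 4 fell and 1 rose, and the median log2 ratio was -1.32 (-0.54 on the log2(FPKM + 1) scale). Lefty2, a Nodal target and inhibitor, fell from 129 to 1.33 FPKM with a log2 ratio of -6.61 ± 0.69 (SE), and Lefty1 from 37.2 to 2.43 FPKM. The co-receptor gene Tdgf1 (Cripto) fell from 37.8 to 0.845 FPKM. Acvr2a, an activin receptor gene, rose from 0.758 to 3.65 FPKM. At E13.5m Lefty2 stood at 171 FPKM, Lefty1 at 319 FPKM and Tdgf1 at 26.6 FPKM.

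Pluripotency and germ cell identity genes were split, with 5 of 28 lower, 2 higher and 21 not called. Nr0b1 fell from 22.2 to 2.08 FPKM, Esrrb from 37.5 to 7.28 FPKM and L1td1 from 67.3 to 19.6 FPKM. Klf2 fell from 171 to 60.7 FPKM and Dppa5a from 902 to 347 FPKM. Klf4 rose from 0.566 to 3.92 FPKM and Fut4, the enzyme that makes the SSEA1 antigen, from 0.521 to 2.82 FPKM (Fut4 not relative to the median). Pou5f1, the core pluripotency factor, stood at 606 and 404 FPKM, and Dppa3 at 1317 and 1208 FPKM, and neither was called. The median log2 ratio of the list was -0.36. In the male germ cell list the cell cycle inhibitor gene Cdkn2b rose, from 1.2 to 6.91 FPKM (not relative to the median), and the other 5 tested were not called. Nanos2, the male determinant, stood at 0.0611 and 0.910 FPKM.

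Few genes of mitosis and DNA replication were called, beside 9.34% higher and 2.68% lower over all tested genes. Of 25 tested mitosis genes, with a median log2 ratio of -0.11, 24 were not called, and Bub1b of the spindle checkpoint fell from 47.8 to 13.9 FPKM. Of 34 tested DNA replication genes, with a median log2 ratio of 0.16, 33 were not called, and Rpa2, a subunit of the single-strand binding complex, rose from 385 to 814 FPKM (not relative to the median). In the control of G1 to S, 2 of 20 tested genes rose (10%) and 2 fell (10%). Ccnd1, a D-type cyclin gene (chromosome 7, 152115835 to 152125830, mm9), rose from 1.56 to 39.4 FPKM with a log2 ratio of 4.65 ± 0.58 (SE). Its partner kinase Cdk4 fell from 1013 to 380 FPKM, and the repressor E2f8 from 9.12 to 2.74 FPKM. The row named Cdkn2d rose too, from 40.4 to 142 FPKM, but the table places it at chromosome 9, 123836859 to 123839607, far from the RefSeq gene of that symbol, so its identity is uncertain.

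Among 25 tested Polycomb genes 4 rose and none fell by the deposited test, although 2 were lower at an unadjusted p-value under 0.05 and the same number relative to the median. Among the 4, Cbx8, a chromobox subunit, rose from 2.50 to 34.8 FPKM, Yaf2, of the variant complexes, from 7.61 to 46.5 FPKM and Rbbp4 from 115 to 285 FPKM. Cbx7 and L3mbtl2 were the 2 that were lower relative to the median, with 35.1 and 16.4 FPKM and 56.0 and 27.2 FPKM. In the DNA methylation list 1 of 12 tested genes changed, Parp1, which fell from 190 to 66.4 FPKM. Tet1 had a log2 ratio of -0.71 ± 0.48 (SE) and was not called.

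**Figure D4:**
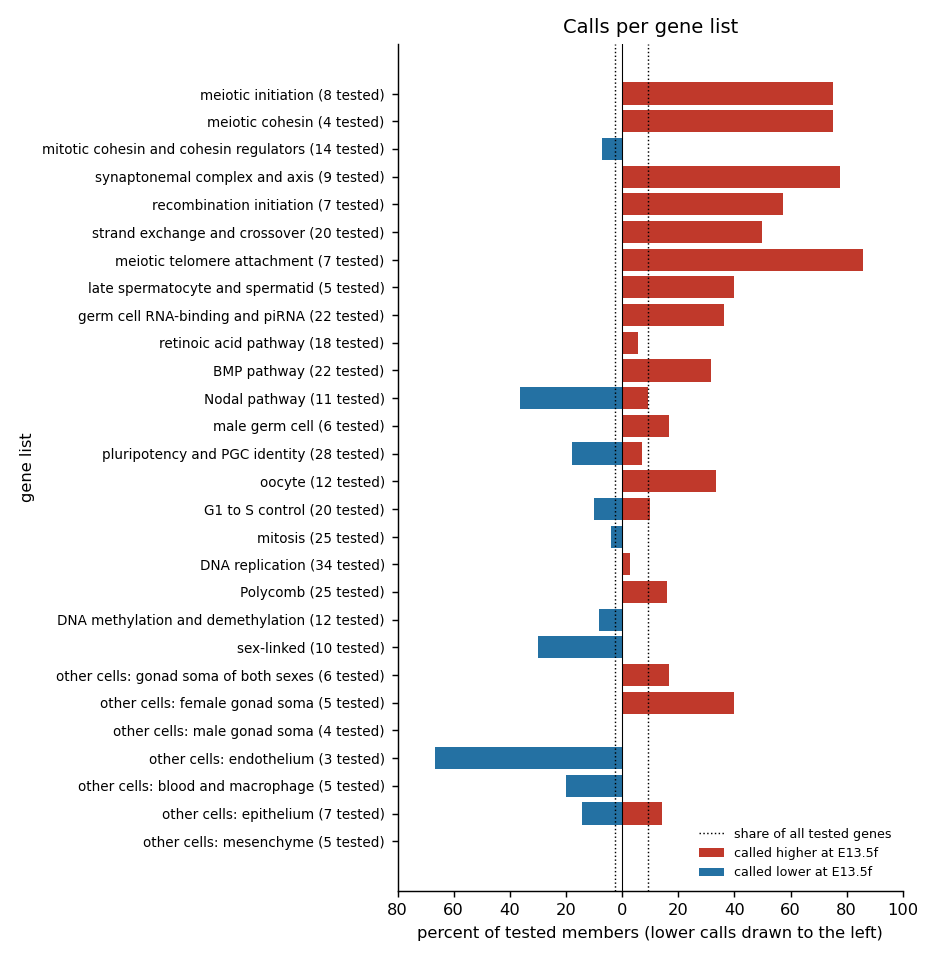
Percent of tested members called higher (red, right) or lower (blue, left) at E13.5f in each of the 28 gene lists, with dotted lines at the 9.34% and 2.68% of all tested genes. The 6 meiotic lists reach from 50% to 85.7% higher, while Nodal pathway genes lie to the left with 36.4% lower.

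Of the 15 largest rises among genes at 5 FPKM or more, in log2(FPKM + 1), Stra8, Rec8, Meioc and Spdya were meiotic list members. Tex101, Brdt and Ccnd1 came from other lists. Taf7l, an X-linked germ cell form of a TFIID subunit, rose from 1.81 to 85.7 FPKM and Cited1, a transcription co-regulator gene, from 2.02 to 66.7 FPKM. Mxd4, a MAX partner that represses transcription, rose from 1.78 to 38.2 FPKM and Sp5, a zinc finger target of Wnt signals, from 0.520 to 20.3 FPKM. Spint1, a protease inhibitor gene, rose from 0.179 to 18.3 FPKM and Htra1, a secreted protease gene, from 1.32 to 28.0 FPKM. Rnf130, a ubiquitin ligase gene, and Arhgdig rose to 55.8 and 37.7 FPKM.

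The 15 largest falls held 4 Nodal pathway genes, led by Lefty2. Kirrel2 and Nphs1as, neighbours on chromosome 7, fell from 7.80 to 0.434 FPKM and from 11.9 to 0.739 FPKM. Whether the authors' counting used strand is not given in the sources used here, so reads of neighbouring or antisense genes may not be told apart. Crip2, a LIM protein gene, fell from 322 to 51.7 FPKM, and Stat4, a cytokine signal transducer gene, from 15.5 to 1.69 FPKM. Serpinb9b, a protease inhibitor gene, ended at 7.32 FPKM after 52.2 at E11.5. AI662270 and Capsl fell to 1.43 and 0.889 FPKM. The embryonic globin gene Hba-x fell from 8.6 to 0.173 FPKM, and the Y-linked Eif2s3y from 46.5 to 0.178 FPKM.

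Genes that crossed from under 1 FPKM to 10 FPKM or more numbered 26, of which 19 were called, and those that crossed the other way numbered 7, of which 5 were called. Meiob, Terb1, Majin, Spdya, Meioc and Stra8 were among the 26. Rises thus outnumbered falls at this step as well as in the calls, where 1163 genes rose and 333 fell. Of the 1163, 444 were under 1 FPKM at E11.5.

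The X chromosome stood apart from the autosomes. Of its 490 tested genes 97 rose, 19.8%, and 14 fell, 2.86%. The share that rose on the 19 autosomes lay between 6.02% on chromosome 16 and 12.3% on chromosome 2. Restricted to genes that reached 1 FPKM in each group, the median log2 ratio was 0.48 on X and 0.12 to 0.26 on the autosomes. In the table of E11.5 and E13.5m, which shares the E11.5 libraries, the X median was -0.06 and the autosome medians lay between -0.03 and 0.11. Called relative to the median, 69 X-linked genes rose, 15.1%, beside 4.12% to 8.87% on the autosomes. These are descriptions, since genes of 1 chromosome are not independent.

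The X-linked genes that rose included several families whose copies can share reads. Of 10 tested Xlr genes 8 rose, of 23 Rhox genes 3 and of 14 genes with Mage symbols 2. Without all symbols starting with Xlr, Rhox, Mage, Gm or Tex, a setting chosen after seeing the data, 73 of 404 rose (18.1%) and the median log2 ratio was 0.39. Named after their values were seen, Dusp9, a phosphatase of MAP kinases, rose from 41.0 to 361 FPKM, Nono from 88.0 to 273 FPKM and Maged1 from 430 to 1047 FPKM. Msl3, a chromodomain gene, rose from 6.4 to 34.8 FPKM. Not every X-linked gene moved this way: Nr0b1 and Hmgn5 fell, Hmgn5 from 169 to 30.5 FPKM, and Eif2s3x, at 45.7 and 21.1 FPKM, and Ddx3x, at 102 and 65.9 FPKM, were not called (Eif2s3x was lower relative to the median). Xist, the RNA that silences an X chromosome, was listed at 0.0481 and 0.0233 FPKM.

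**Figure D5:**
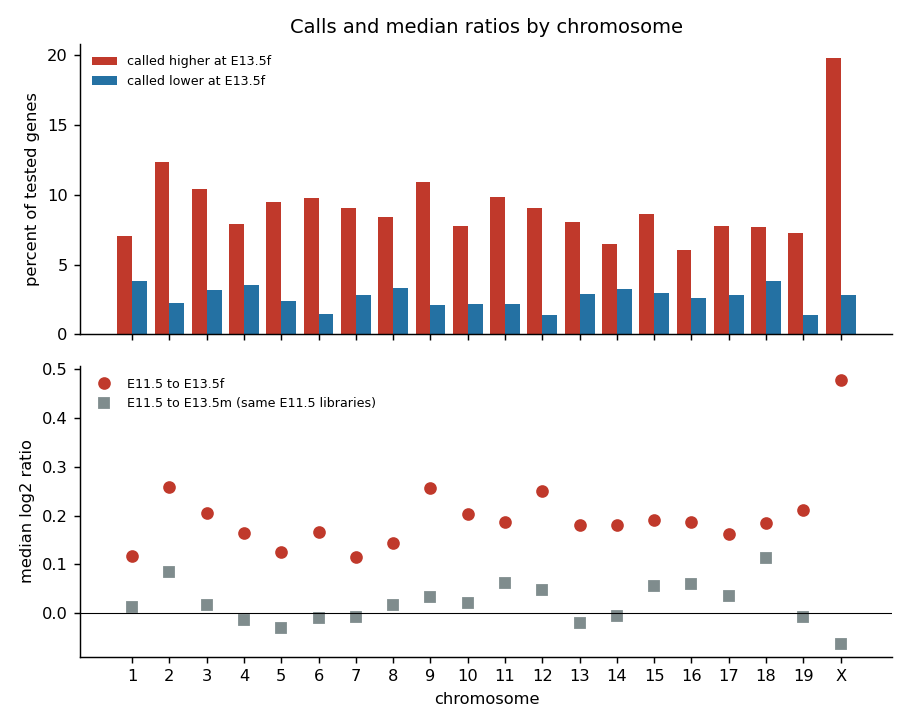
Top, percent of tested genes called higher (red) or lower (blue) at E13.5f on each autosome and on X; bottom, the median log2 ratio, over genes that reached 1 FPKM in each group, from E11.5 to E13.5f (circles) and from E11.5 to E13.5m (squares, same E11.5 libraries). X reaches 19.8% called higher and a median of 0.48, above each autosome, and -0.06 in the E13.5m table.

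Sex-linked genes of the Y chromosome were present at E11.5 and near 0 at E13.5f. Besides Eif2s3y, Ddx3y fell from 2.17 to 0.0120 FPKM and Kdm5d, listed at 0 at E13.5f, from 1.49 FPKM. Zfy1 and Zfy2, at 0.560 and 0.536 FPKM at E11.5, were listed at 0. In the E13.5m column Eif2s3y was at 271 FPKM.

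Most, but not all, markers of other gonad cells were low in both groups. Of 66 such genes found in the table, 45 were under 1 FPKM in both groups and 35 had a completed test. Of the 35, 4 rose (11.4%) and 4 fell (11.4%), beside 9.34% and 2.68% of all tested genes. The summed level of the 66 markers was 548 FPKM at E11.5 and 687 FPKM at E13.5f, and 18 and 14 of them were listed at 0. Most of that level came from the epithelial list, at 229 and 344 FPKM, and the mesenchymal list, at 213 and 243 FPKM. Ptprc, which marks all white blood cells, was listed at 0 in both groups. The somatic gonad genes Wt1, Nr5a1 and Gata4 were at 0.778 and 0.584, 0.559 and 0.389, and 0 and 0.130 FPKM. Foxl2 of the ovarian soma was at 0 and 0.183 FPKM, and Sox9 and Amh of the testis at 0.102 and 0 and at 0.126 and 0.136 FPKM. The female soma list summed to 2.70 FPKM at E11.5 and 15.5 FPKM at E13.5f, with Irx3 rising from 1.72 to 8.46 FPKM and Irx5 from a listed 0 to 2.26 FPKM. Emx2, of the gonad soma, rose from 0.0376 to 0.888 FPKM (not relative to the median).

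The blood list summed to 23.2 and 4.45 FPKM. The endothelial list summed to 75.1 and 73.2 FPKM, mostly from Pecam1, at 61.5 and 67.7 FPKM with no completed test. Of its 3 tested members Esam and Tek fell, from 8.81 to 0.894 and from 1.43 to 0.111 FPKM, and Cldn5, at 2.99 and 4.35 FPKM, was not called. Krt18 rose from 20.1 to 68.6 FPKM and Pax8 fell from 5.38 to 1.37 FPKM. The part of these cells in the results above was not tested. In such pooled cells, fewer cells of a type and less RNA per cell cannot be told apart.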

How the data were processed

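RNA from primordial germ cells was amplified and sequenced by the authors. Per the submitters' processing notes, reads were handled with Bowtie, with TopHat (1.3.1) and with Cufflinks, whose version, like that of Cuffdiff, was 1.0.3 for the E13.5 libraries without a sex label and 1.2.1 for the stage libraries. The deposited name of the E11.5 and E13.5f comparison gives the later Cuffdiff version for both groups. The genome build was mm9. The deposited Cuffdiff tables give 1 pooled FPKM per group, a p-value, a q-value and a test statistic, a score, per the file headers. Depth is unknown, so no counting interval is given for levels.

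Calls were the authors' own at a q-value of 0.05 over rows with a completed test. Log2 ratios were computed from both FPKM values, and the SE is the ratio divided by the deposited statistic where that exceeded 0.05 in size. A retest relative to the median (normal, two-sided, Benjamini-Hochberg over 11730 genes with an SE) was tried on simulated ratios. It recovered 56.5% of 200 set log2 changes of size 2 and 92.0% of those of size 4. False calls made up 3.42% and 5.15%. The noise was drawn with the same SE that the retest uses, so this cannot show whether the SE holds in the data. Genes listed at 0 in a group have no ratio and left that retest, among them 34 genes that rose and 5 that fell. List medians are of log2 ratios. Largest changes were ranked by log2(FPKM + 1), which understates low genes and was also used for list medians under other settings.

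Members and lists were chosen with earlier results of these data known. The 28 lists hold 457 genes, of which 449 matched by symbol, 20 through older symbols of the RefSeq GRCm38.p6 gene table or known renamings. Named were all meiotic list members, Msx1, the 15 largest rises and falls (called, with 1 symbol, reaching 5 FPKM), the 5 members of each remaining list with the largest change, and sex-linked and other-cell markers. Further called list members and germ cell markers were named after their values were seen. The software was Python 3.11.15 with pandas 2.3.3, numpy 2.4.6 and scipy 1.17.1, and matplotlib 3.10.9 for plots. Some list members and large changes are not reported here, and they stay in the counts.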

Additional observations from a re-analysis of the deposited data

Results flagged for a closer look

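Rows without a completed test could not enter the calls, and 7 members of the gene lists in such rows stood at 5 FPKM or more at E13.5f and at least 2 times their E11.5 value. The deposited values at E11.5 and E13.5f were 45.4 and 410 FPKM for Sycp3, the lateral element gene of the synaptonemal complex. They were 2.53 and 10.5 FPKM for Spo11, 19.2 and 61.1 FPKM for Brme1 (listed as 4930432K21Rik), a partner of HSF2BP, and 9.50 and 22.8 FPKM for Brca2. Cdk2 was at 32.8 and 84.4 FPKM, the retinoic acid receptor gene Rara at 17.0 and 35.6 FPKM and the cell cycle inhibitor gene Cdkn1c at 28.1 and 145 FPKM. None of these differences was tested.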

How the results depend on the processing

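At a q-value threshold of 0.01 the counts were 565 genes higher and 134 lower, and 59 members of all gene lists called in place of 94, while 28 of the 36 meiotic genes still rose. Centring left 817 genes higher and 487 lower, so that the higher share of calls was 62.7% in place of 77.7%. X-linked genes called relative to the median made up 15.1%, a setting added after seeing the data. With 0.5 and 5 FPKM as limits, 48 genes in place of 26 crossed upwards. A new adjustment, a minimum of 1 FPKM, a minimum log2 ratio of 1 and 1 row per symbol each left the 3 main counts within 1.5 times. Of 82 genes (meiotic members, Msx1 and the largest changes) retested relative to the median, 77 kept their call, 5 lost it and none that was called changed sign. Medians of lists on the log2(FPKM + 1) scale moved by at least the median SE in 8 of 57 cases, among them Nodal, to -1.31, and retinoic acid, to 1.59, with a pseudocount of 0.1. The mesenchyme median on that scale, -0.15, was 0.43 with members at 1 FPKM or more, and 0.14 as a log2 ratio. Among 336 list counts 14 moved by over 1.5 times. A count of 0 was taken as 1 for this ratio, so moves between 0 and 1 are not among the 14. Counts of 0 under both settings are among the 336. Leaving out a library was not possible, since levels are pooled. No paired analysis was possible because the columns carry no replicates. Low genes are the least certain, since depth is unknown.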
